A study of Ovis aries with 67 samples.

Results

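The 100 genes described here were the most abundant transcripts that perirenal (PER) and subcutaneous (SUB) fat of adult sheep held at similar levels, chosen from 27054 annotated genes. In the libraries with 2000000 or more counts in genes, the mean CPM (a gene's counts scaled to a library total of 1000000 counts in genes) was taken for each depot. A gene was kept when its mean log2(CPM + 1) differed by less than 1 between the depots, which 26656 genes met after ENSOARG00000018232 had been left out by the rule, and the 100 kept genes with the highest lower mean of the 2 depots became the members. Their levels and the differences between depots chose them and are therefore given as a description without a test. Neither diet nor sex was used to choose them.

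White fat stores triglyceride in large adipocytes, and its RNA also comes from the stromal, vascular and immune cells around them. In most tissues a small number of genes supplies a large part of the messenger RNA, typically genes for the translation machinery, the cytoskeleton, the extracellular matrix and the main function of the tissue. In bulk fat, fewer cells of a type and less RNA per cell cannot be told apart.

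All sheep were crossbred Texel twins. Their dams were fed during the last 6 weeks of gestation a NORM diet (100% of energy and protein requirements), a LOW diet (50% of NORM) or a HIGH diet (150% of energy and 110% of protein requirements). The lambs then received, from day 3 until month 6, either a conventional low-fat diet (CONV) or one high in carbohydrate and fat (HCHF), and all were then kept on low-fat hay for 2 years and slaughtered at 2.5 years. Ribosomal RNA-depleted total RNA of 36 sheep (17 males and 19 females) gave 67 libraries, 36 of PER and 31 of SUB. Of these, 62 libraries entered the results: 33 of PER (5 HIGH-CONV, 6 HIGH-HCHF, 8 LOW-CONV, 5 LOW-HCHF, 6 NORM-CONV and 3 NORM-HCHF) and 29 of SUB (5, 5, 7, 5, 4 and 3 in the same order). From 6 months on, males and females were kept in separate groups, so that sex and housing cannot be told apart. The labels give no dam, and sheep were treated as independent samples.

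The used libraries held 2035120 to 13232721 counts in genes, and every member had 355 or more counts in each of them (median 10650). Counting error was therefore small beside the spread between sheep. The 5 libraries left out held 620406 to 1087270 counts, and 93.1% to 97.6% of their reads fell in no gene. A single female sheep stood apart in both depots. Her PER library (PER-NORM-CONV replicate 5) had the lowest PER value of 34 members and the highest of 11, and her SUB library (SUB-NORM-CONV replicate 4), the shallowest one used, had the lowest SUB value of 35 members and the highest of 8. Without her PER library, 52 members were called between the sexes (adjusted p under 0.05), and the share of all genes in that fit is not given here. With her PER library 48 members were called, where 30.3% of all genes were called. In SUB 32 were called without her library (20.8% of all genes) and 32 with it (19.1%). Some of the ranges, CVs and correlations that she moved are given below in both ways.

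The file of counts does not pair the Ensembl identifiers with gene names, and none of the identifiers matched the gene table at hand. Only 1 member carries a symbol through the study's own text: ENSOARG00000009032 is SPARC, a secreted glycoprotein that binds collagen and modulates the contact of cells with their matrix. The other 99 members are given by identifier without a function, and markers of cell types and gene families could not be scored. Gene lengths were not at hand either, so the order of levels between genes depends on their lengths.

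The levels of the members ran over a wide range, and a few genes stood far above the rest. Taking the lower of the 2 depot means, 4 members were at 10000 CPM or more, 61 between 1000 and 10000 CPM and 35 under 1000 CPM. The first member, ENSOARG00000023715, had 15389, 31302 and 69209 CPM as lowest, median and highest value in PER, and 9983, 45844 and 82272 CPM in SUB. Without the sheep that stood apart its lowest SUB value was 20073 CPM. It was the most abundant gene of any kind in 27 of 33 PER and 26 of 29 SUB libraries. The second, ENSOARG00000014988, was steadier, at 8041 to 19719 CPM in PER (median 15733) and 8045 to 30768 CPM in SUB (median 16949). ENSOARG00000009344 ranged from 3125 to 18566 CPM in PER (median 10778, lowest 4156 without her) and from 1798 to 26539 CPM in SUB (median 14694). ENSOARG00000020509 completed the 4, with 1905 to 23165 CPM in PER (median 12715) and 3710 to 18543 CPM in SUB (median 11167), and its lowest PER value without that sheep was 5704 CPM. The ranges of the 2 depots overlapped for all 4 genes, and the ranges of these genes overlapped each other within a depot.

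Below these 4, ENSOARG00000023915 had median levels of 6626 CPM in PER and 11892 CPM in SUB. ENSOARG00000011328 stood at 6355 and 6812 CPM, and ENSOARG00000006149 at 5908 and 7635 CPM. ENSOARG00000003474 had 6142 CPM in PER and 5601 CPM in SUB. The next pair leaned in opposite directions. ENSOARG00000009400 had a mean of 6322 CPM in PER against 4572 CPM in SUB, and ENSOARG00000016476 had 4426 CPM in PER against 7813 CPM in SUB. SPARC ranked 14th, with 798, 3389 and 6926 CPM as lowest, median and highest value in PER and 583, 5065 and 11965 CPM in SUB. The other members among the first 20 (ENSOARG00000024340, ENSOARG00000022840, ENSOARG00000017123, ENSOARG00000020658, ENSOARG00000007332, ENSOARG00000006115, ENSOARG00000011709, ENSOARG00000011863 and ENSOARG00000001874) had mean levels of 2512 to 3953 CPM in PER and 2178 to 4922 CPM in SUB.

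**Figure D1:**
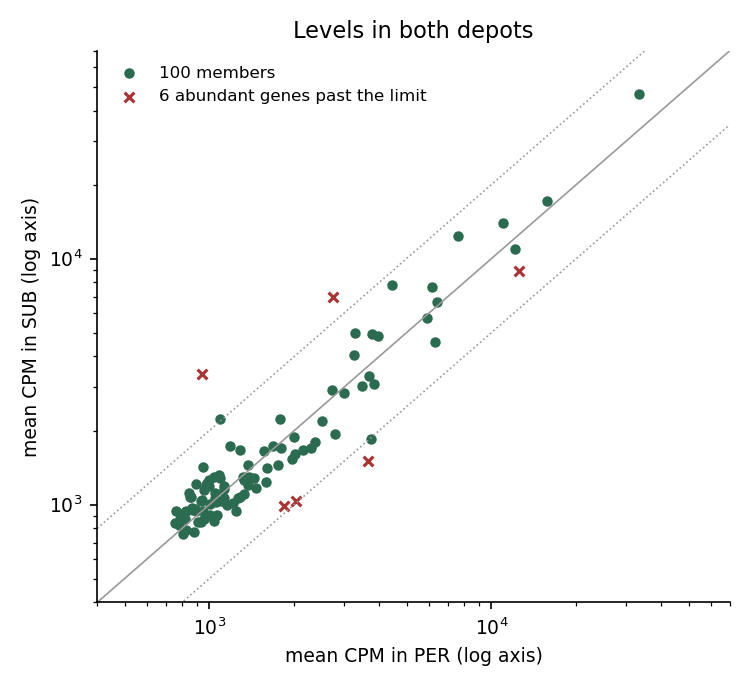
Mean CPM of each member in PER (x, log axis, n = 33 libraries) against SUB (y, log axis, n = 29 libraries), with the 6 genes that were abundant enough but past the limit of the depot difference as crosses. The solid line marks equal means and the dotted lines a 2-fold difference of the plotted means. Since the limit was set on mean log2 values, 3 crosses lie between the dotted lines. ENSOARG00000023715 stands alone at the upper right, at 33493 and 46853 CPM.

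The members divided about evenly between the depots. The mean CPM was higher in PER for 49 members and higher in SUB for 51. The difference of mean log2(CPM + 1) was under 0.25 in size for 54 members and under 0.5 for 89. Of the 11 members at 0.5 or more, 7 leaned to PER and 4 to SUB. Among the first 10, the PER minus SUB difference of mean log2(CPM + 1) was −0.48 for ENSOARG00000023715, −0.68 for ENSOARG00000023915, −0.68 for ENSOARG00000016476 and 0.58 for ENSOARG00000009400. SPARC was at −0.39. All other genes of the first 10 lay between −0.30 and 0.10.

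Similar means did not give equal levels within a sheep. In the 26 sheep with both libraries, no member had the same sign of the PER minus SUB difference in every sheep, and 17 members had it in at least 80% of them. The first member was higher in PER in 6 of 26 sheep, ENSOARG00000023915 in 4 of 26 and SPARC in 8 of 26, whereas ENSOARG00000007332 was higher in PER in 21 of 26. The median over members of the SD of this within-sheep log2 difference was 0.62.

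The limits of the choice fell in a continuous range of values. ENSOARG00000012810 (lower mean 757.0 CPM) and ENSOARG00000013038 (756.3 CPM) were the last genes inside the rank limit, and ENSOARG00000004046 (747.0 CPM) and ENSOARG00000015489 (743.6 CPM) the first outside. On the depot difference, ENSOARG00000021018 (−0.92) and ENSOARG00000014674 (0.88) were the members nearest to the limit. ENSOARG00000008248 (1.19) and ENSOARG00000005473 (−1.26) were the nearest of the 6 genes that were abundant enough but past it. Of these 6 genes, 4 were higher in PER and 2 in SUB.

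The 100 members, out of 27054 genes, held 17.99% to 30.8% of all counts in genes. Their share was 24.2% ± 2.54 (SD, n = 33) in PER, from 17.99% to 28.5%, and 26.7% ± 1.91 (SD, n = 29) in SUB, from 23.0% to 30.8%. In the 26 sheep with both libraries the share was higher in SUB in 23, with a mean SUB minus PER difference of 2.84 percentage points ± 2.75 (SD). Read composition moved with depot too: 72.1% ± 6.24 (SD, n = 33) of the reads fell in no gene in PER and 63.1% ± 8.42 (n = 29) in SUB, with the higher value in PER in 22 of 26 sheep, and its part in the differences in share and concentration was not tested. Without the sheep that stood apart the shares were 24.3% ± 2.33 (n = 32) and 26.8% ± 1.85 (n = 28). In the 5 shallow libraries left out, the same genes held 2.28% to 20.5% of the counts.

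Much of the share, and most of its spread, sat in the first 10 members. They held 10.9% ± 2.14 of the counts in PER (6.86% to 14.9%) and 13.4% ± 2.19 in SUB (8.82% to 17.8%), with lowest values of 7.78% and 9.75% without the sheep that stood apart. This was 44.8% ± 4.47 and 49.9% ± 5.33 of the members' own counts. The remaining 90 members held 13.2% ± 0.72 in PER and 13.3% ± 0.985 in SUB. Within sheep the first 10 were higher in SUB in 23 of 26, while the remaining 90 were higher in SUB in 12 of 26. ENSOARG00000023715 alone had a median share of 3.13% in PER (1.54% to 6.92%) and 4.58% in SUB (0.998% to 8.23%, or from 2.01% without the sheep that stood apart).

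The concentration can be put as an effective number of members, the inverse of the sum of their squared shares, which would equal 100 if all members were equally abundant. It was 28.0 ± 7.98 in PER (13.3 to 41.4) and 20.9 ± 7.50 in SUB (10.8 to 36.5). It was lower in SUB in 21 of 26 sheep. Counting all genes, a median of 80 genes in PER and 59 in SUB made up 25% of a library's counts, and a median of 655 and 536 genes made up 50%. Members took a median of 77 of a library's 100 most abundant places in PER (52 to 83, or from 57 without the sheep that stood apart) and 75 in SUB (60 to 83). In every used library 39 members were among the 200 most abundant genes, 76 among the 500 and 94 among the 1000 (48, 88 and 97 in the 60 libraries without that sheep), and all 100 were counted in each of the 67 libraries.

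The members differed widely in how much they varied between sheep. The coefficient of variation (CV, SD over mean of CPM) had a median of 28.3% in PER (9.39% to 88.3%) and 34.3% in SUB (11.8% to 120%), and 70 members had the larger CV in SUB. Without the sheep that stood apart the medians were 27.1% and 32.7% and the highest values 58.8% and 92.2%. It was under 20% in both depots for 6 members, and 50% or more for 5 members in PER and 19 in SUB. The steadiest in PER were ENSOARG00000013038 (634 to 970 CPM), ENSOARG00000010243 (827 to 1313 CPM) and ENSOARG00000016562. In SUB they were ENSOARG00000011109 (910 to 1634 CPM), again ENSOARG00000013038 (587 to 979 CPM), and ENSOARG00000011328, the sixth most abundant member, in whose place ENSOARG00000010243 stood without that sheep.

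The most variable members carried a few very high libraries. ENSOARG00000006957 had a median of 1119 CPM and a highest value of 8068 CPM in PER, from the sheep that stood apart, and 4447 CPM without her. ENSOARG00000006115 had a median of 1931 CPM and a highest value of 17927 CPM in SUB, which was 12071 CPM without her. ENSOARG00000006515 had a median of 1110 CPM and a highest value of 9482 CPM there, which was 6143 CPM without her. ENSOARG00000011605 and ENSOARG00000014674 followed in PER, and ENSOARG00000012810 in SUB. ENSOARG00000014674 ranged from 200 to 8767 CPM in PER.

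Members also rose and fell with each other across libraries. Among 4950 pairs of members, Pearson's r of log2(CPM + 1) was above 0.8 for 182 pairs in PER and 293 in SUB, and below −0.5 for 605 and 853 pairs, around a median of 0.08 in both depots. In PER the first member, ENSOARG00000023715, was most like ENSOARG00000011605 (r = 0.93 across 33 libraries) and least like ENSOARG00000012810 (r = −0.90). In SUB it was most like ENSOARG00000005681 (r = 0.94 across 29 libraries) and least like ENSOARG00000006515 (r = −0.94). These values are descriptive, because all members share a library's total, and sex and read composition vary across the same libraries.

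Whether a sheep with a high level in one depot also had a high level in the other was tested for the first 10 members across the 26 sheep, by a permutation test with 100000 resamples adjusted over the 10 genes. ENSOARG00000020509 was correlated between depots, with Pearson's r = 0.69 (adjusted p = 0.0022) and Spearman's rho = 0.64 (adjusted p = 0.0061), and r = 0.62 without the 2 sheep farthest from the median in SUB. ENSOARG00000009344 passed on Pearson's r (0.53, adjusted p = 0.0484) but not on Spearman's rho (0.43, adjusted p = 0.060), and r fell to 0.34 without 2 sheep. Without the sheep that stood apart (n = 25), ENSOARG00000009344 did not pass by the permutation test (r = 0.29, adjusted p = 0.237), while ENSOARG00000020509 did (r = 0.58, adjusted p = 0.0190). ENSOARG00000003474 and ENSOARG00000009400 then passed the permutation test on Spearman's rho (adjusted p = 0.0105 and 0.0394) but not on r (adjusted p = 0.0801 and 0.0889). The other 8 genes did not pass in the 26 sheep, and the first member had r = 0.37 (adjusted p = 0.197). Within 13 females or within 13 males no gene passed by the permutation test, ENSOARG00000020509 having r = 0.61 (adjusted p = 0.291) and r = 0.47 (adjusted p = 0.523).

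The question of the experiment was whether nutrition before birth and in early life leaves a lasting mark on the transcripts of adult fat. No member passed an adjusted p of 0.05 in any comparison of diets in either depot, and neither did any other gene (edgeR quasi-likelihood test, 17698 genes in PER and 15442 in SUB, 0% called in each of the 8 comparisons). The smallest adjusted p of any gene was 0.358, in PER between HCHF and CONV. DESeq2 and limma-voom called no member in these comparisons either, though over all genes DESeq2 called up to 12 and limma-voom up to 9, in both cases most in PER between HCHF and CONV. The study itself, with DESeq2 on all libraries, reported many such genes in PER between LOW and HIGH, LOW and NORM, and HCHF and CONV. It also reported genes in PER for LOW-HCHF and HIGH-HCHF against NORM-CONV and for the interaction of prenatal diet with sex. These comparisons were not tested here. It reported none between HIGH and NORM in PER and none for diet in SUB. Why the calls differ was not tested.

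At an unadjusted p of 0.05 the members' counts stood on both sides of those of all genes. In PER, 20 members passed between LOW and NORM (1 higher and 19 lower in LOW) against 6.56% of all genes, 10 between HIGH and NORM (3 higher, 7 lower) against 4.41%, 5 between LOW and HIGH (all lower in LOW) against 3.99%, and 7 between HCHF and CONV (6 higher, 1 lower) against 10.8%. In SUB, 2 members passed between LOW and NORM against 4.94%, 11 between HIGH and NORM (10 higher, 1 lower) against 4.76%, 6 between LOW and HIGH (1 higher, 5 lower) against 3.11%, and 2 between HCHF and CONV against 2.84%. The 20 members of the LOW and NORM comparison in PER were 4 when the share of reads in no gene was a covariate (4.59% of all genes). They were 2 in the libraries with under 80% of reads in no gene (2.27%), 6 with main effects alone (3.79%) and 0 with all libraries (2.54%). Other counts moved in both directions. With the covariate, 20 members passed between HIGH and NORM in PER (6.15%) and 24 in SUB (10.8%). In SUB libraries under 80%, 18 passed between HCHF and CONV (8.14%). In PER libraries under 80%, 3 passed between HIGH and NORM (4.12%). The cause of these changes was not tested.

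The fitted differences between diets were mostly under 0.5 on the log2 scale. In PER the median over members of the log2 fold change was −0.10 for LOW against NORM, 0.05 for HIGH against NORM, −0.12 for LOW against HIGH and 0.10 for HCHF against CONV, where the median over all genes lay between −0.02 and 0.00. In SUB the members' medians were 0.13, 0.11, −0.05 and 0.01, and those of all genes between −0.02 and 0.00. Fold changes were under 0.5 in size for 99 members between HCHF and CONV in PER and for all 100 in SUB, with median standard errors of 0.15 and 0.19. Between LOW and NORM they were under 0.5 for 92 members in PER and 95 in SUB, with median standard errors of 0.18 and 0.25.

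The most abundant member shows the size of these differences. In PER, ENSOARG00000023715 had a mean of 28926 CPM under CONV (8 males and 11 females) and 39690 CPM under HCHF (9 males and 5 females). The fitted log2 fold change, averaged over the sexes and prenatal diets, was 0.29 ± 0.18 (SE, edgeR adjusted p = 0.568). In SUB the gene had 49199 CPM under CONV and 43964 CPM under HCHF, with a fitted log2 fold change of −0.32 ± 0.24 (SE, edgeR adjusted p = 0.9999). The mean CPM values by diet are not adjusted for sex. By prenatal diet the means of ENSOARG00000023715 were 34659, 34440 and 31420 CPM in PER of NORM, LOW and HIGH sheep, and 40392, 54237 and 42513 CPM in SUB. SPARC differed by −0.64 ± 0.23 (SE) between LOW and HIGH in PER and by 0.71 ± 0.33 (SE) between HIGH and NORM in SUB, neither of which passed (edgeR adjusted p = 0.9997 and 0.964).

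The share of counts held by the members was described by diet without a test. In PER it was 24.0% ± 3.26 (SD, n = 9) in NORM, 23.9% ± 2.44 (n = 13) in LOW and 24.6% ± 2.17 (n = 11) in HIGH sheep, and 23.4% ± 2.43 (n = 19) under CONV against 25.2% ± 2.39 (n = 14) under HCHF. In SUB it was 25.7% ± 1.99 (n = 7), 27.4% ± 1.77 (n = 12) and 26.5% ± 1.85 (n = 10) in NORM, LOW and HIGH sheep, and 26.6% ± 1.47 (n = 16) under CONV against 26.7% ± 2.41 (n = 13) under HCHF. The sexes were unevenly spread over the prenatal diets. In SUB there were 2 males and 5 females in NORM, 6 and 6 in LOW and 5 and 5 in HIGH sheep. In PER there were 4 males and 5 females in NORM, 8 and 5 in LOW and 5 and 6 in HIGH sheep. The sexes were also unevenly spread over the postnatal diets in PER, with 8 males of 19 sheep under CONV and 9 of 14 under HCHF. Within females the PER share was 21.8% ± 1.54 (SD, n = 11) under CONV and 23.9% ± 2.53 (n = 5) under HCHF, and within males 25.6% ± 1.55 (n = 8) and 25.9% ± 2.09 (n = 9). The ranges of CONV and HCHF overlapped within each sex in PER.

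**Figure D2:**
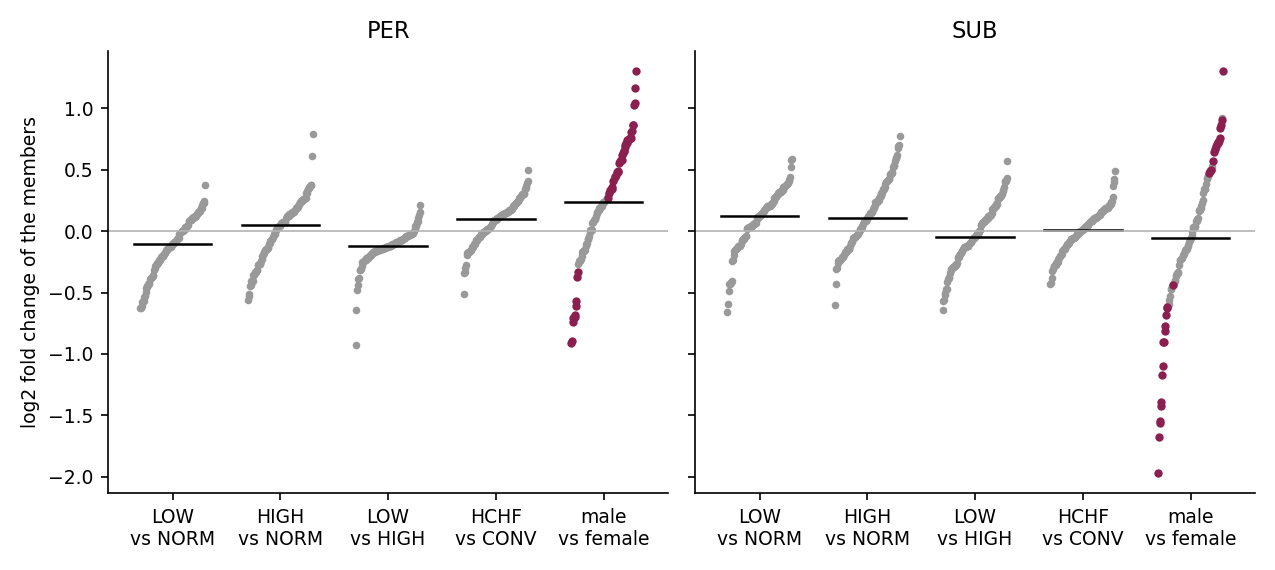
Log2 fold change (edgeR, y) of each of the 100 members in the 5 comparisons (x) in PER and in SUB, sorted within a comparison. Coloured points have an adjusted p under 0.05, grey points do not, and the black line is the members' median. All points of the 4 diet comparisons are grey, and only the comparison of males with females holds coloured points, 48 in PER and 32 in SUB.

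Males and females differed in many of the members. In PER, 48 of the 100 members differed (edgeR, adjusted p under 0.05), 37 higher and 11 lower in males, where 30.3% of all genes tested differed, 17.3% higher and 13% lower. The log2 fold changes of the 37 ran from 0.27 to 1.30 (median 0.65) and those of the 11 from −0.91 to −0.33 (median −0.70). In SUB, 32 members differed, 16 in each direction, against 19.1% of all genes, 9.07% higher and 10.1% lower. There the fold changes ran from 0.48 to 1.31 (median 0.71) and from −1.97 to −0.44 (median −1.003). The median over all 100 members was 0.24 in PER and −0.06 in SUB, that over all genes −0.03 and −0.04.

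Abundant genes beyond the members were called at like shares. Of the 400 genes next in rank by the same rule, 50.8% differed between the sexes in PER (186 higher and 17 lower in males) and 26.0% in SUB (68 higher and 36 lower). The balance of the directions in PER, though not the sign of any called member, moved with the scaling. With library totals in place of TMM factors, which shifted the median of all genes from −0.03 to −0.15, 28 members were higher and 14 lower in males, and over all genes 1637 were higher and 3238 lower. The lists of called members kept their signs under every setting tried, 48 of 48 in PER and 32 of 32 in SUB, but not their number.

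Read composition moved with sex in PER. The share of reads that fell in no gene was 75.1% ± 6.45 (SD, n = 16) in females and 69.3% ± 4.64 (n = 17) in males, and of the 6 PER libraries at 80% or more, 5 were of females. With this share as a covariate 22 members were called in PER (14 higher, 8 lower), 19 of them among the 48, against 13.2% of all genes in the same fit. In the 27 libraries under 80%, 10 members were called (7 higher, 3 lower), all among the 48, against 4.24% of all genes. In SUB the share was 65.1% ± 8.81 in females and 60.6% ± 7.48 in males, and 38 members were called with it as a covariate (24.6% of all genes). In the SUB libraries under 80%, 32 were called (20.8% of all genes). That limit left out only 1 SUB library, SUB-NORM-CONV replicate 4, so it restricted SUB far less than PER.

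In SUB the count under the model with pairwise interactions fell most when the 1 NORM-CONV male was left out. Without SUB-NORM-CONV replicate 3, 4 members were called, all lower in males (ENSOARG00000006957, ENSOARG00000014790, SPARC and ENSOARG00000016476). In that fit 1.87% of all genes were called, and the model with pairwise interactions had no male in that group. A model of main effects alone, also without that library, called 31 members (11 higher, 20 lower) against 13.2% of all genes. With all libraries, the shallow ones included, 3 members were called in SUB (ENSOARG00000007344 higher in males, SPARC and ENSOARG00000010998 lower), against 2.77% of all genes.

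Among the genes higher in males, ENSOARG00000018566 had the smallest adjusted p in PER. Females had 361, 639 and 912 CPM as lowest, median and highest value and males 746, 1231 and 1527 CPM. Of 17 males, 16 lay above every female, and the log2 fold change was 1.05 ± 0.13 (SE, edgeR adjusted p = 6.8e-06). The next, ENSOARG00000008195, had 443 to 1063 CPM in females (median 604) and 781 to 1430 CPM in males (median 1036). Its groups overlapped, with 8 of 17 males above every female, and its log2 fold change was 0.76 ± 0.11 (SE, edgeR adjusted p = 7.8e-05).

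Lower in males in PER were first ENSOARG00000012810 and ENSOARG00000012880. ENSOARG00000012810 had 467 to 1553 CPM in females (median 1000) and 229 to 830 CPM in males (median 489), a log2 fold change of −0.91 ± 0.13 (SE, edgeR adjusted p = 4.5e-05). ENSOARG00000012880 had 567 to 1473 CPM in females (median 957) and 288 to 825 CPM in males (median 548), a log2 fold change of −0.70 ± 0.12 (SE, edgeR adjusted p = 0.000218). For both genes every male lay below the female median. The sexes overlapped for every member in both depots.

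In SUB, ENSOARG00000011605 led the genes higher in males. Females had 217, 842 and 1219 CPM as lowest, median and highest value and males 916, 1863 and 3164 CPM, with 11 of 13 males above every female. Its log2 fold change was 1.31 ± 0.25 (SE, edgeR adjusted p = 0.0016). ENSOARG00000007344 had 349 to 1281 CPM in females (median 678) and 880 to 1605 CPM in males (median 1226), a log2 fold change of 0.73 ± 0.16 (SE, edgeR adjusted p = 0.0039). Neither passed without SUB-NORM-CONV replicate 3, with log2 fold changes of 0.85 and 0.45 (edgeR adjusted p = 0.1098 and 0.197).

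SPARC, the collagen-binding matrix protein, was the member most strongly lower in males in SUB. Females had 2607, 7000 and 11965 CPM as lowest, median and highest value and males 583, 1658 and 5015 CPM. All 13 males lay below the female median and 8 below every female. The log2 fold change was −1.97 ± 0.28 (SE, edgeR adjusted p = 9.6e-05), and it passed under each of 11 alternatives and without any single SUB library. In PER, females had 1773.6, 3949 and 6926 CPM and males 798, 2187 and 4079 CPM, with 15 of 17 males below the female median. The log2 fold change there was −0.74 ± 0.21 (SE, edgeR adjusted p = 0.0089), which passed under 8 of 10 alternatives. The study lists SPARC among the genes that differ between the sexes in SUB, a list drawn from these samples, so the call is not independent evidence. That list, made with DESeq2 on all libraries, is far shorter than the 2955 genes (19.1% of all genes) called here in SUB by edgeR without the shallow libraries. With all SUB libraries edgeR called 463 genes (2.77%). Why the lists differ in length was not tested.

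ENSOARG00000016476 followed SPARC in SUB. Females had 4814, 8791 and 28025 CPM and males 1240, 3715 and 6774 CPM, with every male below the female median. The log2 fold change was −1.39 ± 0.24 (SE, edgeR adjusted p = 0.00069). In PER it was −0.68 ± 0.20 (SE, edgeR adjusted p = 0.0114).

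The first member moved the other way. In PER, ENSOARG00000023715 had 15389, 20875 and 44883 CPM as lowest, median and highest value in females and 22116, 44340 and 69209 CPM in males. All 17 males lay above the female median and 8 above every female. The log2 fold change was 1.02 ± 0.19 (SE, edgeR adjusted p = 0.00042) and passed under all 10 alternatives. In SUB, females had 9983, 38959 and 59585 CPM and males 37308, 56336 and 82272 CPM. There the log2 fold change was 0.69 ± 0.24 (SE, edgeR adjusted p = 0.0471), and it passed in only 12 of the 29 fits that left out 1 library.

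**Figure D3:**
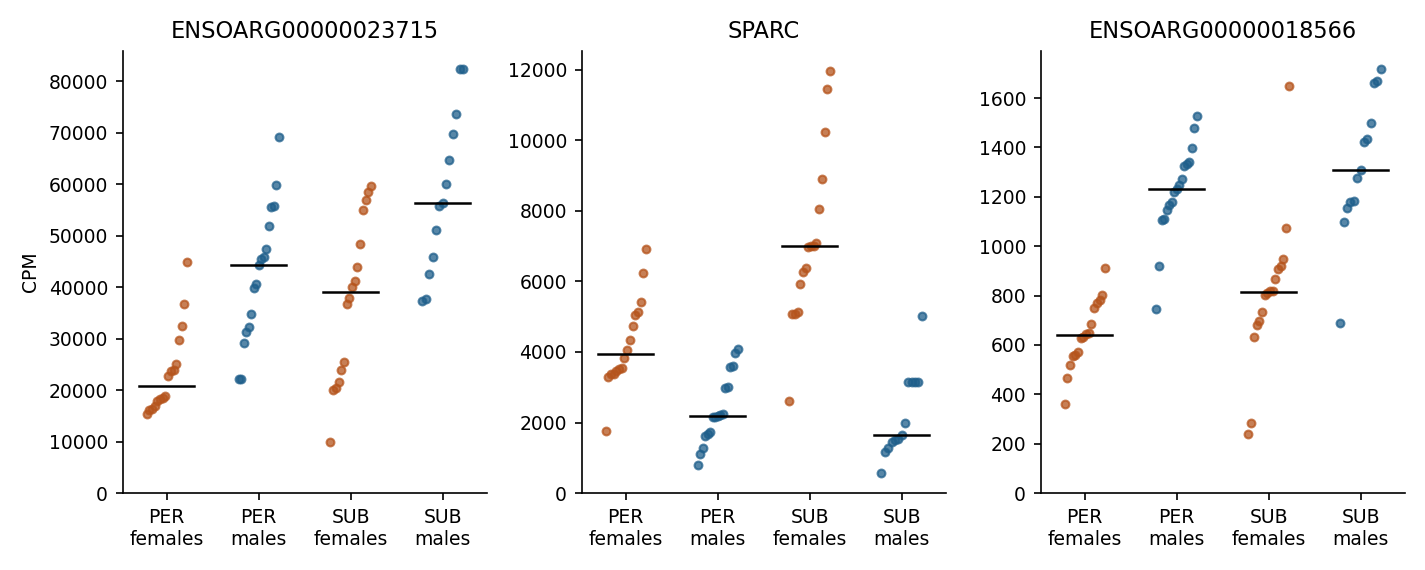
CPM (y, from 0) of ENSOARG00000023715, SPARC and ENSOARG00000018566 in every used library of PER females (n = 16), PER males (n = 17), SUB females (n = 16) and SUB males (n = 13). Points are libraries sorted by value and the line is the median. Males sit higher for both genes given by identifier and lower for SPARC, whose SUB medians are 7000 CPM in females and 1658 CPM in males.

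Of the 20 most abundant members, 10 differed between the sexes in PER (7 higher and 3 lower in males), where 30.3% of all genes did. In SUB 8 differed (3 higher, 5 lower), where 19.1% of all genes did. ENSOARG00000017123 passed narrowly in PER (edgeR adjusted p = 0.0475), and in 3 of 10 alternatives. ENSOARG00000020509 had medians of 8208 CPM in females and 15006 CPM in males in PER, a log2 fold change of 0.86 ± 0.19 (SE, edgeR adjusted p = 0.0017). ENSOARG00000006115 had medians of 2484 CPM in females and 1234 CPM in males in SUB, a log2 fold change of −1.55 ± 0.39 (SE, edgeR adjusted p = 0.0106), which was −1.10 and did not pass without SUB-NORM-CONV replicate 3. In the PER libraries under 80% of reads in no gene, ENSOARG00000018566, ENSOARG00000008195, ENSOARG00000012810, ENSOARG00000012880 and ENSOARG00000023715 passed, while SPARC, ENSOARG00000016476 and ENSOARG00000020509 did not. Their log2 fold changes in these 27 libraries were −0.62, −0.67 and 0.89. The second member, ENSOARG00000014988, did not pass in either depot (log2 0.01 ± 0.10 in PER and −0.34 ± 0.17 in SUB, SE, edgeR adjusted p = 0.935 and 0.141).

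In step with these genes, the counts were more concentrated in males. In PER the members held 25.8% ± 1.81 (SD, n = 17) of the counts in males and 22.4% ± 2.07 (n = 16) in females, of which the first 10 held 12.4% ± 1.51 and 9.36% ± 1.52. ENSOARG00000023715 alone held 4.28% ± 1.32 in males and 2.36% ± 0.847 in females. The effective number of members was 22.7 ± 6.13 in males and 33.6 ± 5.48 in females. In PER libraries under 80% of reads in no gene, the shares were 26.0% ± 1.56 (n = 16) in males and 22.9% ± 2.31 (n = 11) in females.

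In SUB the members held 27.4% ± 2.20 (SD, n = 13) in males and 26.1% ± 1.45 (n = 16) in females, a difference smaller than the SD in males. The first 10 held 14.7% ± 1.95 in males and 12.3% ± 1.84 in females, and the remaining 90 held 12.8% in males and 13.7% in females. The effective number of members was 16.5 ± 4.66 in males and 24.5 ± 7.51 in females. No test was made on these sums over chosen genes.

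**Figure D4:**
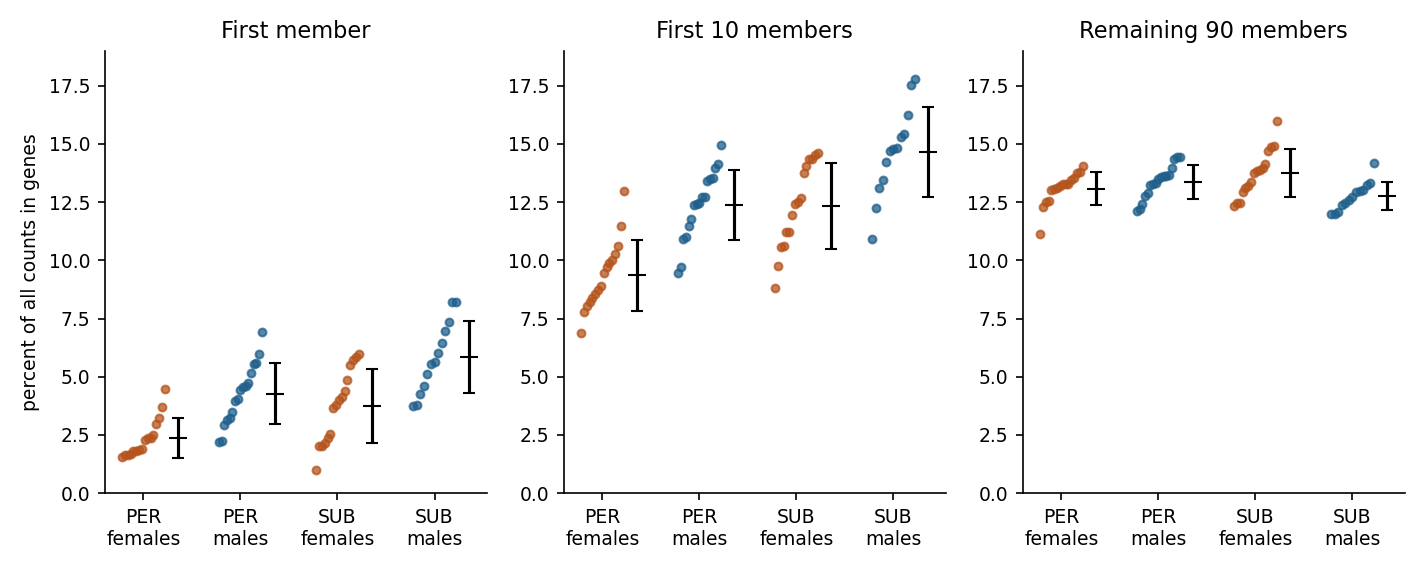
Percent of all counts in genes (y, from 0) held by the first member, the first 10 members and the remaining 90 members in every used library, by depot and sex. Points are libraries sorted by value, and the bar beside them is the mean ± SD. The first 10 members held 9.36% in PER females and 12.4% in PER males on average, whereas the remaining 90 stayed near 13% in all 4 groups.

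The sex differences of the 2 depots overlapped in part. Of the 100 members, 21 were called in the same direction in both depots (12 higher and 9 lower in males), which was 43.8% of the PER list and 65.6% of the SUB list. Over all genes tested in both depots, 11.9% were called in the same direction, 35.7% of the PER list and 62.2% of the SUB list. The depots share 26 sheep, so these lists are not independent. A further 26 members were called in PER alone, 10 in SUB alone and 42 in neither, and 1 was called in opposite directions.

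**Figure D5:**
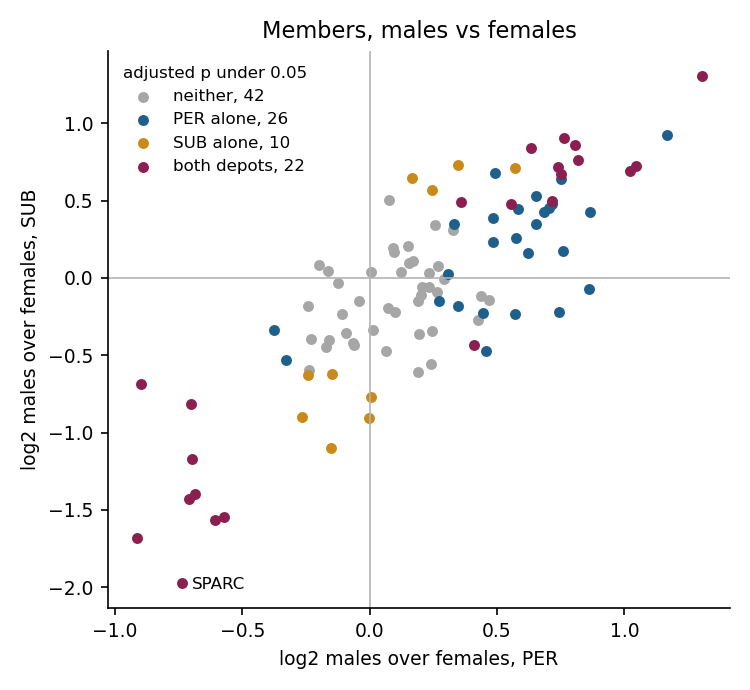
Log2 fold change of males over females (edgeR) in PER (x) and SUB (y) for the 100 members, coloured by the depots in which the adjusted p was under 0.05. Of the members called in both depots, 21 lie in the quadrants of equal sign and 1 does not, and SPARC is the lowest point, at −0.74 in PER and −1.97 in SUB.

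A call in a single depot does not show that the depots differ, so the difference between the effects was tested itself. For diets, no member and no other gene passed (0% of 18362 genes in each of 3 comparisons, edgeR). At an unadjusted p of 0.05, 13 members passed for LOW against NORM, against 8.7% of all genes. For 12 of them the log2 fold change of LOW against NORM was lower in PER than in SUB. For HIGH against NORM 3 members passed against 3.04%, and for HCHF against CONV 5 against 7.31%. ENSOARG00000023715 was among the last 5, with a difference in effect of 0.62 ± 0.30 (SE, edgeR adjusted p = 0.669).

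For males against females, 2 members differed between the depots where 0.147% of all genes did, both with a larger log2 fold change in PER (0.0926% of all genes). ENSOARG00000019180 was the member called in opposite directions. In PER its medians were 1400 CPM in females and 1721 CPM in males, a log2 fold change of 0.41 ± 0.11 (SE, edgeR adjusted p = 0.0053). In SUB they were 1426 CPM in females and 967 CPM in males, a log2 fold change of −0.44 ± 0.14 (SE, edgeR adjusted p = 0.0290). The difference was 0.82 ± 0.16 (SE, edgeR adjusted p = 0.0167).

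ENSOARG00000010998 was lower in males in SUB, with medians of 1040 CPM in females and 618 CPM in males and 9 of 13 males below every female (log2 −0.90 ± 0.17, SE, edgeR adjusted p = 0.0012). In PER its medians were 1203 and 1026 CPM (log2 −0.00 ± 0.13, SE, edgeR adjusted p = 0.984). The difference was 0.87 ± 0.20 (SE, edgeR adjusted p = 0.0470). With the sheep as replicate block, in the 26 sheep with both libraries, neither gene passed (log2 differences of 0.83 and 0.97, edgeR adjusted p = 0.0887 each). SPARC was the only member called with the block, at a difference of 1.17 ± 0.22 (SE, edgeR adjusted p = 0.0278), against 1.204 ± 0.336 (SE, edgeR adjusted p = 0.118) without the block in all used libraries. The fit with the block called 0.128% of all genes. With 1 sheep left out at a time, ENSOARG00000019180 passed in 29 of 36 fits and ENSOARG00000010998 in 7 of 36.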

How the data were processed

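The deposited files hold raw counts per gene, 1 file per library, made by the authors. Per the labels and the study's methods, reads were trimmed (Trimmomatic 0.39), freed of ribosomal RNA (BWA 0.7.17-r1188), aligned to Oar_v3.1 (annotation release 99) with STAR 2.7.3a, allowing 8 mismatches, and counted over exons with HTSeq. The kit keeps strand. The strand setting of the counting is not given in the sources used here, so overlapping and antisense genes, and close paralogs, cannot be separated. Reads in no gene, ambiguous reads and 3 further classes of uncounted reads stayed out of library sizes. Reads in no gene are given as percent of reads in a gene, in no gene or ambiguous.

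Members and lists were chosen with earlier results of these data known. Libraries under 2000000 counts were left out. Tests used edgeR 4.0.16 (quasi-likelihood, TMM, genes with 1 CPM in at least 4 libraries; sex, postnatal and prenatal nutrition and their pairwise interactions, averaged with equal weights), with Benjamini-Hochberg adjustment over all genes tested and a threshold of 0.05. The difference in effect crossed depot with that model. Standard errors are the fold change over the root of F. DESeq2 1.42.0, limma 3.58.1 (voom with quality weights), other scalings, filters and models, all libraries, each library left out and a replicate block were alternatives. The scripts were tested on simulated data.

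Sheep numbers in the labels pair the depots: same-sheep deviations correlated with a median r of 0.28 (−0.17 to 0.58; over 0.1 in 20 of 26 sheep, 18362 genes). The text names the first 20 members, the first 2 in each direction by adjusted p between the sexes, the 3 most and least variable, those with a symbol and those at the limits. R 4.3.3, Python 3.11.15, numpy 2.4.6, pandas 2.3.3, scipy 1.17.1 and matplotlib 3.10.9 were used.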

Additional observations from a re-analysis of the deposited data

Results flagged for a closer look

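In 90 combinations of a group with a measure of the members, a library was marked when its gap to the nearest of the others was large for the range of its group. Chance marks about 1 in 20 groups, and 4 were marked. PER-LOW-HCHF replicate 2 (a female) held 7.78% of its counts in the first 10 members, where the other 4 libraries of the group held 11.5% to 12.7%. Its effective number of members was 38.2, against 16.99 to 21.4 in the others. The other 4 libraries were all of males, and both values lay within the range of PER females (6.86% to 13.0% and 21.6 to 41.4). SUB-NORM-CONV replicate 4, the shallowest used library, had an effective number of 26.6, against 15.5 to 17.3 in the other 3. ENSOARG00000009344 had 26539 CPM in SUB-LOW-CONV replicate 2 (a male), against 11594 to 16980 CPM in the other 6.

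The effect of sex differed between the depots for 2 members by the test of the difference: by 0.82 on the log2 scale for ENSOARG00000019180 (higher in males in PER, lower in SUB) and by 0.87 for ENSOARG00000010998 (lower in males in SUB). With the sheep as replicate block the differences were 0.83 and 0.97 and neither passed.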

How the results depend on the processing

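Other ways of choosing the members (all libraries, TMM scaling, medians, a limit of 0.5 or none, another pseudocount, each library left out) shared 89 to 100 genes with the list. Their median share moved to 24.0% in SUB with the limit of 0.5, to 21.2% in PER and 23.1% in SUB without the most abundant member, and to 6.96% and 10.1% of all reads in a gene, in no gene or ambiguous. Leaving out 1 library kept it at 23.7% to 24.0% in PER and 26.6% to 27.0% in SUB.

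No alternative called a member between diets. Between the sexes in PER, 22 members were called when the no-gene share entered as a covariate (13.2% of all genes) and 10 in libraries under 80% of reads in no gene (4.24%). With each library left out, 35 to 54 were called. In SUB, 3 were called with all libraries (2.77% of all genes), and 4 to 43 with each library left out: 4 without SUB-NORM-CONV replicate 3, 20 without SUB-LOW-HCHF replicate 2 and 20 without SUB-HIGH-HCHF replicate 6. The share of all genes called in SUB moved too, from 19.1% in the main fit to 1.87% without SUB-NORM-CONV replicate 3. For most other fits with 1 library left out, in PER and in SUB, that share is not given here. Their counts of members can therefore not be set against all genes. No sign turned. For single named genes, 923 alternative values kept the call and 156 lost it. The cause of these changes was not tested. The correlation between depots (Pearson's r) passed for 0 of the first 10 members in females and 0 in males, with 13 sheep each, and for 1 without the sheep that stood apart, against 2 in all.

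For the difference between depots in the effect of sex, 1 member was called with the replicate block (0.128% of all genes). Without the block, 0 were called in the same sheep (0.00555% of all genes) and 0 with all libraries (0.073%). Of 36 sheep left out in turn, 22 gave 1 member, 7 gave 0, 6 gave 2 and 1 gave 3 (0 to 3 in all). The block changed no other call. The alternatives of libraries under 80%, main effects without 1 library, each sex alone and the sheep left out were chosen after seeing the data. Levels per kilobase were not run, since no annotation of the build was at hand.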
